A study of Mus musculus with 14 samples.

Results

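Sprr1a, Sprr2a1, Sprr3, Lor and Krt4 were examined as a group of cornified envelope and squamous keratin genes in mouse stomach and 6 other tissues. These are 5 of the 22221 genes that the tag counts distinguish. They were chosen by name: every tag on the sense strand of a transcript whose annotation gave one of the genes was summed within its UniGene cluster, the unit by which the files define a gene. All 5 clusters were found. The tags of Sprr2a1 and Sprr2b share 1 cluster and cannot be told apart by it, so that gene is written Sprr2a1/Sprr2b. The clusters are Mm.331191 for Sprr1a, Mm.6853 for Sprr2a1/Sprr2b, Mm.57092 for Sprr3, Mm.1121 for Lor and Mm.46425 for Krt4. The first 4 lie on chromosome 3 and Krt4 on chromosome 15.

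The cornified envelope is a protein shell that replaces the plasma membrane of keratinocytes as they end their differentiation. Loricrin, involucrin and the small proline-rich proteins are cross-linked into it by transglutaminases, and keratin filaments fill the cell beneath. In the mouse the proximal part of the stomach, the forestomach, is lined by a cornified squamous epithelium, while the distal part is glandular.

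The series holds 14 libraries, 1 male and 1 female library from each of 7 tissues of C57BL6 mice: stomach, bone marrow, hippocampus, liver, pancreas, parotid gland and spinal cord. Each library counts 20-base tags, cut from cDNA at a DpnII site (GATC) towards the 3′ end of the transcript. The labels give no age, no number of animals and no part of the stomach, so "stomach" means the tissue as labelled. The spread between the 2 libraries of a tissue (n = 2) is also the difference between a male and a female sample. In liver it is the difference between lobes too, since the labels give the left lobe for the male and the right lobe for the female library, and lobe and sex cannot be told apart there.

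Library totals ran from 2194028 to 3834568 counts. The female stomach library stood apart in its unassigned tags and in tags close to abundant ones. Of the 2194028 counts of the male stomach library 87.6% were assigned to genes, and of the 3140095 counts of the female one 73.5%. Both shares lay within the range over all libraries, 60.8% to 92.1%. A single unassigned tag took 0.556% of the male and 4.57% of the female stomach library, against at most 0.705% in the other 12 libraries. Tags that differ by 1 base from an abundant tag (at least 1000 and under 10000 counts) added a median of 2.80% to its count in male stomach and 11.2% in female stomach, against 3.06% to 6.65% in the other 12 libraries. Each result on male and female stomach below rests on these libraries.

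The leading tag of each gene carries almost all of its counts and is shown because every level below depends on it. Capitals mark the DpnII site.
Sprr1a: GATCaccagatgctgaggct
Sprr2a1/Sprr2b: GATCagggcaatggtcactg
Sprr3: GATCctctaaggtaccagag
Lor: GATCgtcccaacagtatcag
Krt4: GATCtatgttctacaatgat
These tags held 91.6% of the Sprr1a counts in male stomach and 97.8% in female stomach, and at least 98.3% of the counts of each of the other 4 genes in either library. The Krt4 tag is rich in A and T. G and C make up 25% of the 16 bases after its site, against 50% for Sprr3 and Lor and 56.25% for Sprr1a and Sprr2a1/Sprr2b.

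All 5 genes were abundant in both stomach libraries and close to absent elsewhere. Levels are CPM, counts per 1000000 counts assigned to genes, which corrects for depth and not for transcript length. Nor do CPM correct for the make-up of a library. The scaling factors used in the tests (TMM) ran from 0.147 in male pancreas to 2.49 in female spinal cord. Where a library had no count, a level of up to 3 counts is possible, which is 0.867 to 1.56 CPM depending on depth. The 95% intervals given for 1 library are exact (Clopper-Pearson) and cover counting error only, and tags carry no molecular identifiers.

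Among the small proline-rich proteins, which serve as cross-bridges of the envelope, Sprr2a1/Sprr2b was the most abundant of the 5 genes in both stomach libraries by tag count. It had 17457 CPM in male stomach (95% interval 17272 to 17643) and 44262 CPM in female stomach (43997 to 44528). That was 1.75% and 4.43% of all gene counts of the male and the female library. Outside stomach it had 18.6 CPM in male and 7.33 CPM in female spinal cord, 2.42 CPM in male and 1.98 CPM in female liver, and 0 CPM in male and 3.25 CPM in female pancreas. Bone marrow, hippocampus and parotid libraries had 0 to 0.734 CPM. Both stomach libraries thus lay far above every other library, and spinal cord came next, with both of its libraries above the remaining 10. From liver downwards each tissue overlapped with the next.

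Sprr1a had 415.6 CPM in male stomach (387.3 to 445.4) and 198.1 CPM in female stomach (180.3 to 217.1). It had 0.956 CPM in male and 1.47 CPM in female spinal cord, 0.289 CPM in male and 0.292 CPM in female parotid, and no count in the other 8 libraries. The counts outside stomach were 7 in all, so the order of spinal cord and parotid rests on single tags.

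Sprr3 had 429.1 CPM in male stomach (400.3 to 459.4) and 248.8 CPM in female stomach (228.8 to 270.0). It was the only one of the 5 without a single count in the 12 libraries of other tissues, so no order of those tissues can be given.

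Lor encodes loricrin, the main protein of the envelope in epidermis. It had 1888 CPM in male stomach (1827 to 1950) and 808.3 CPM in female stomach (772.0 to 845.8). It had 2.39 CPM in male and 3.42 CPM in female spinal cord, 2.37 CPM in male and 2.95 CPM in female hippocampus, and 0.907 CPM in male liver. The other 7 libraries had no count. Spinal cord and hippocampus overlapped, and both lay above liver.

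Krt4 encodes a type II keratin of the suprabasal layers of squamous epithelia such as the oesophagus, where it pairs with keratin 13. It had 648.1 CPM in male stomach (612.6 to 685.1) and 1597 CPM in female stomach (1546 to 1649). Outside stomach it had 1 count in female spinal cord and 1 in male liver, and none in the other 10 libraries.

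**Figure D1:**
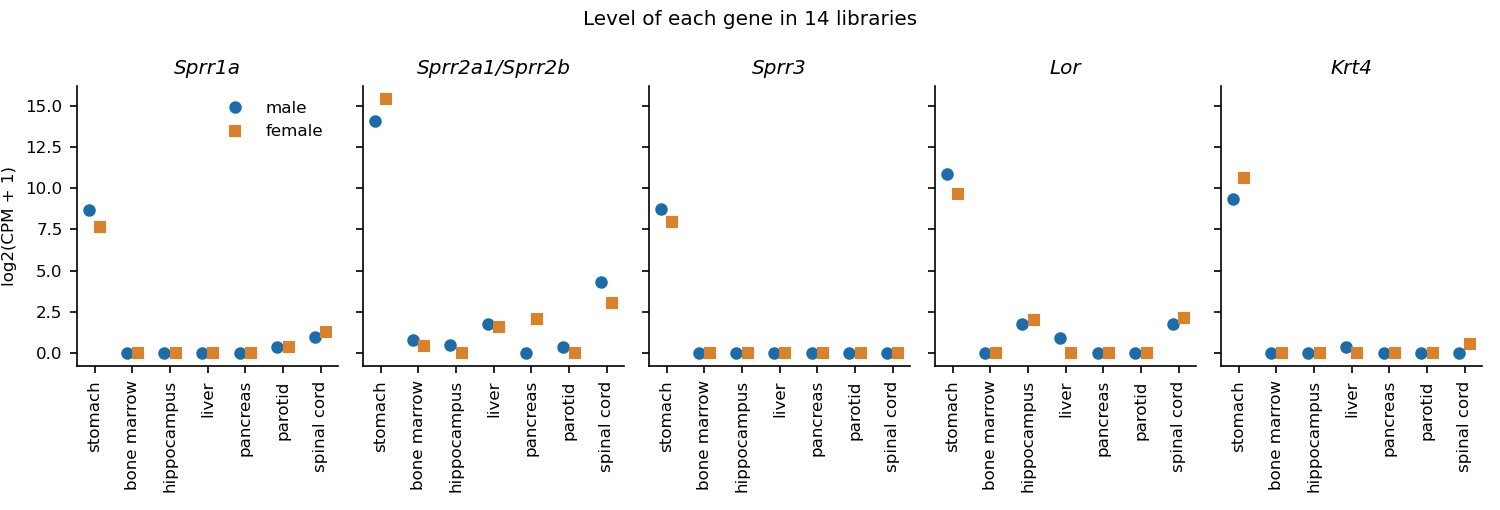
Level of Sprr1a, Sprr2a1/Sprr2b, Sprr3, Lor and Krt4, as log2(CPM + 1), in each of 14 libraries, with 1 panel per gene, tissues along the x axis, circles for male and squares for female libraries. In each panel both stomach points lie above all 12 others, and male stomach lies above female stomach for Sprr1a, Sprr3 and Lor and below it for Sprr2a1/Sprr2b and Krt4.

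In edgeR's quasi-likelihood test of stomach against the mean of the other 6 tissues, with Benjamini-Hochberg adjustment over 14682 genes, all 5 genes were called higher. A call takes a fold of 2 or more with an adjusted p below 0.05. The mean is taken over log levels, so a gene can be called higher although another tissue lies far above stomach. Of all genes tested, 17.9% were called higher in stomach and 3.92% lower. The adjusted p was 9.6e-12 for Sprr1a, 1.9e-13 for Sprr2a1/Sprr2b, 9.3e-11 for Sprr3, 1.9e-12 for Lor and 3.0e-12 for Krt4. All but Sprr2a1/Sprr2b, which spinal cord also carried, passed the filter on low counts through the stomach libraries alone and had to differ. The fitted log2 folds, 11.23 to 14.35, depend on the prior count where tissues had no count. The ratio of pooled counts, without the TMM factors, is therefore given as the size of the difference. In the 2 stomach libraries over the 12 others, pooled CPM were 1362-fold higher for Sprr1a (95% counting interval 659 to 3396), 12879-fold for Sprr2a1/Sprr2b (10347 to 16243) and 1490-fold for Lor (1030 to 2244). Krt4, with 2 counts outside stomach, had a ratio of 18717.5 with an interval of 5179 to 154600. Sprr3 was at least 3541-fold higher, taking 3 counts over the 12 other libraries as the floor. In bulk tissue, fewer cells of a type and less RNA per cell cannot be told apart.

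Each of the 5 genes was also called higher in stomach against every one of the 6 tissues taken alone. The share of all genes called higher was 23.6% against bone marrow, 22.4% against hippocampus, 18.3% against liver, 7.74% against pancreas, 10.4% against parotid and 19.2% against spinal cord. The highest adjusted p of the 30 tests was 1.3e-05, for Sprr3 against pancreas. With DESeq2, 11 of the 30 calls were lost, those of Sprr3 against all 6 tissues, of Krt4 against 4 and of Sprr1a against pancreas, with log2 folds of 9.05 to 13.17 and DESeq2 adjusted p of 0.054 to 0.35. These comparisons share the stomach libraries. All 5 genes kept their call against the mean of the other tissues with either stomach library left out.

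The levels of the 5 genes over the 14 libraries correlated with each other at Pearson's r of 0.959 to 0.991 on the log2(CPM + 1) scale. This is a description of 14 libraries in which 2 are high and 12 are near 0. Among 6775 genes with at least 10 CPM in stomach, the pattern most like the mean of the 5 was that of Crct1 (r = 0.998), a gene of the same chromosome 3 cluster. Filaggrin (Flg, r = 0.996), the precursor of the proteins that bundle keratin in epidermis, and Vsig1, a junction protein of stomach epithelium (r = 0.996), came next among named genes. A cluster titled Calpain 13 (r = 0.997), one titled Kallikrein 5 (r = 0.996), Pla2g10 (r = 0.996), a cluster known by a RIKEN clone name (r = 0.995) and Pgc (r = 0.995) made up the rest of the first 8. Pgc encodes a pepsinogen of gastric glands and had 234060 CPM in male and 84495 CPM in female stomach. Genes of the squamous and of the glandular epithelium thus share this pattern, and in all 52 genes reached r of 0.99. Taken alone, Sprr1a was most like Pla2g10 and the Calpain 13 cluster, and Sprr2a1/Sprr2b most like Cpa4 and Mogat1. Sprr3 was most like Gata5 and 2200002J24Rik, both also without a count outside stomach. Lor was most like Sctr and Vsig8, and Krt4 most like a cluster known by a RIKEN clone name and one titled ADP-ribosylation factor-like 14.

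Sprr1a, Sprr2a1/Sprr2b, Sprr3 and Lor lie in the epidermal differentiation complex, a stretch of chromosome 3 that holds most genes of envelope proteins. From Lor to Rptn the RefSeq annotation lists 49 protein-coding genes, of which 28 were matched to 27 clusters. The stretch was chosen after values were seen, so its counts are a description. Of the 27 clusters 26 had a count in both stomach libraries, 20 reached 10 CPM in both, and 19 had no count in any of the 12 other libraries. No cluster of the stretch other than Lor, Sprr2a1/Sprr2b and Sprr1a had more than 2 counts outside stomach. All 21 clusters that passed the filter were called higher in stomach, against 17.9% of all genes, but all of them other than Sprr2a1/Sprr2b passed through stomach alone and had to differ.

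The late cornified envelope genes (Lce), which encode small proteins added late to the envelope, summed to 1753 CPM in male and 955.6 CPM in female stomach over 12 clusters. The 11 of them other than Lce1l had no count elsewhere. Lce1a2, the most abundant in male stomach, had 438.0 CPM there and 116.1 CPM in female stomach. Flg had 236.1 CPM in male and 176.4 CPM in female stomach, and repetin (Rptn), a related envelope protein, 214.3 CPM in male and 252.2 CPM in female stomach. Involucrin (Ivl), an early scaffold protein of the envelope, was low, with 1.56 CPM in male and 6.07 CPM in female stomach.

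The other Sprr genes that were matched to a cluster of their own were low by tag count. Sprr2a2, Sprr2a3, Sprr2h, Sprr2k and Sprr4 were not matched, so their levels are not known. A sense tag of the Sprr2a1/Sprr2b cluster also stands at or near the annotated start of Sprr2a2 and Sprr2a3, as given below. Whether other tags of the cluster count these genes was not tested. Sprr2d had 25 counts in male and 48 counts in female stomach, Sprr2i 15.1 and 37.3 CPM in male and female stomach, and Sprr1b 2.08 and 4.33 CPM in male and female stomach. The leading tags of Sprr2d, Sprr2i and Sprr1b, shown because they separate these relatives from the cluster that dominates, differ from every sense tag of the Sprr2a1/Sprr2b cluster by at least 8 bases.
Sprr2d: GATCtgtcctcagttattca
Sprr2i: GATCtcactgttttttcatt
Sprr1b: GATCaacaatagatgctgag

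**Figure D2:**
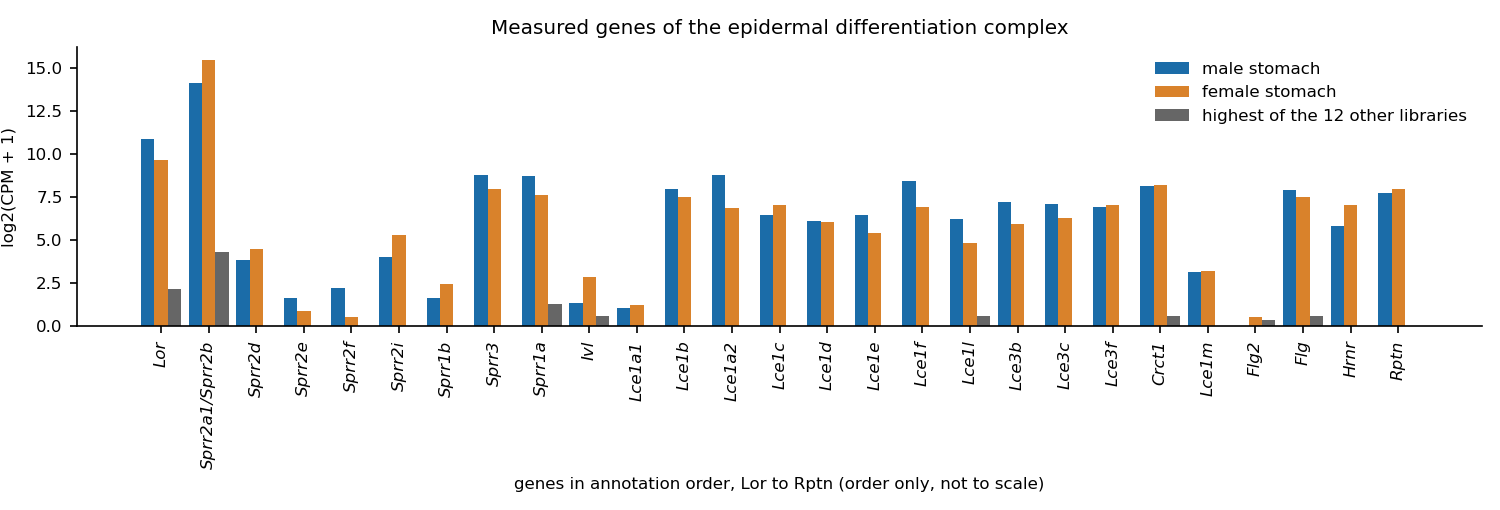
Level, as log2(CPM + 1), of the 27 measured clusters from Lor to Rptn in annotation order, with bars for male stomach, female stomach and the highest of the 12 other libraries. Bars of the other libraries reach above 2 for Lor and Sprr2a1/Sprr2b alone, and Sprr2e, Sprr2f, Sprr1b, Ivl, Lce1a1, Lce1m and Flg2 have the 7 lowest stomach bars in both libraries.

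The 250 bases before the annotated start are shown for the members that have an entry, since these genes share their pattern over the tissues (RefSeq, GRCm38.p6, written along the gene's strand). Capitals mark matches, searched on both strands, to an AP-1 core with the letters TGANTCA and to the TATA box letters TATAAA.
Sprr1a, chr3:92485882-92486131, minus strand: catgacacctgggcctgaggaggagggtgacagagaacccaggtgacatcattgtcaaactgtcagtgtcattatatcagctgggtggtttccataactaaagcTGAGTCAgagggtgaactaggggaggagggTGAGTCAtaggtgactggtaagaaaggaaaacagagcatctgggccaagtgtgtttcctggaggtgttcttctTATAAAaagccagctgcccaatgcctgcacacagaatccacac
Sprr2a1, chr3:92215585-92215834, plus strand: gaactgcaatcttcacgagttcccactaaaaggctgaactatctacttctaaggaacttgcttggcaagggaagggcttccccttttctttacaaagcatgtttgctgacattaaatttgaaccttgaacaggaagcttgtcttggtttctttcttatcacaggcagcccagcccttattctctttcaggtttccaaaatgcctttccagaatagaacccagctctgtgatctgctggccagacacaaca
Sprr2b, chr3:92316455-92316704, plus strand: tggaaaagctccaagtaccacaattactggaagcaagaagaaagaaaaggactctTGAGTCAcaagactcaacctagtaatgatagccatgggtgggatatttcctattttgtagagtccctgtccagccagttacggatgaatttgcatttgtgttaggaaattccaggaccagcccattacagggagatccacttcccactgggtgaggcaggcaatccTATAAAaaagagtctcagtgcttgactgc
Sprr3, chr3:92458721-92458970, minus strand: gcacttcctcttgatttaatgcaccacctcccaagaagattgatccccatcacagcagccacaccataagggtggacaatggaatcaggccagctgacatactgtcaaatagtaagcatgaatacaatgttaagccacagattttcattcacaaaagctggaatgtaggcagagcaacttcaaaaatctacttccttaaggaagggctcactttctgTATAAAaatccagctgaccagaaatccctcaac
Lor, chr3:92083143-92083392, minus strand: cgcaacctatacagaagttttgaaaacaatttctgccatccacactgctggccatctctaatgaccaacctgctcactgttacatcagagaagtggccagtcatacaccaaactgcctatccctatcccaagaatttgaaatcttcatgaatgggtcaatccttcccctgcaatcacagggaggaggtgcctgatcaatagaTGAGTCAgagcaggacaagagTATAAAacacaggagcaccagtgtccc
TGANTCA was found in 3 of these 5 windows, those of Sprr1a, Sprr2b and Lor, and in 6.75% of 32851 windows of the same length. TATAAA was found in 4 of the 5, at 27 to 43 bases before the start, and in 12.4% of all windows. Of 2 other motifs searched, CCCACCC was in 1 of the 5 and 15.8% of all windows, and TTTCCT in 2 of the 5 and 25.4%. The matches in capitals do not overlap each other. A match is a description of letters and not a site.

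Sense tags of the Sprr2a1/Sprr2b cluster did not all follow the leading tag, and 3 of its 10 tags are shown because they differ in where they were counted. G and C make up 31.25% of the 16 bases after the site in the first and 56.25% in the others.
AT-rich tag: GATCctttctcttgtttttg
Level tag: GATCaggtaacaggcaggct
Tag at the transcript start: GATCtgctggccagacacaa
The leading tag had 17169 CPM in male and 43670 CPM in female stomach. The AT-rich tag had 66.1 CPM in male and 349.7 CPM in female stomach, and the level tag 157.1 CPM in male and 156.9 CPM in female stomach. The leading and the AT-rich tag were thus lower in male stomach, and the level tag was not. The tag at the transcript start had 0 counts in male and 1 count in female stomach but 19 counts in 5 of the 12 other libraries, among them 8 in male and 3 in female liver. Its letters stand 22 to 3 bases before the annotated start of Sprr2a1 and Sprr2a2 and 6 to 25 bases after that of Sprr2a3, as read from RefSeq's GRCm38.p6. Of the 12 liver counts of the cluster 11 came from this tag, and 1 from the leading tag. In spinal cord the leading tag had 38 counts in the male library and 9 in the female one.

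Other squamous gene lists were measured as well. Of 41 other envelope proteins 33 were matched and 25 tested, of which 24 were called higher and 0 lower. Their median log2 fold was 8.66, against 0.17 over all genes tested. Of the 25, 15 passed the filter through stomach alone and had to differ, so these counts are a description. The list was not confined to stomach. Its matched genes summed to 4359 CPM in male and 4151 CPM in female stomach, against 29.0 to 897.9 CPM elsewhere, the highest in male bone marrow. Krtdap, a secreted protein of differentiating keratinocytes, had 931.1 CPM in male and 304.7 CPM in female stomach and at most 0.488 CPM elsewhere. Lgals7, a galectin of stratified epithelia, had 901.9 CPM in male and 1177 CPM in female stomach, against at most 5.26 CPM elsewhere. Crct1 had 280.9 CPM in male and 296.9 CPM in female stomach, and Sbsn, suprabasin, 341.7 and 60.7 CPM in male and female stomach. S100a10, an annexin partner made in many cells, was not called, with 45.3 CPM in male and 41.6 CPM in female stomach, against 129.0 CPM in female liver.

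Among 17 enzymes of envelope cross-linking and lipids, 9 of 10 tested were called higher and 0 lower (median log2 fold 5.57), and 4 passed through stomach alone. Transglutaminase 3 (Tgm3), which cross-links Sprr proteins and loricrin, had 41.1 CPM in male and 20.8 CPM in female stomach, against at most 1.58 CPM elsewhere. Spink5, an inhibitor of the proteases that shed cornified cells, had 104.0 CPM in male and 315.1 CPM in female stomach, and lost its call with DESeq2 (adjusted p = 0.0607). Klk8, one of these kallikrein proteases, had 39.5 CPM in male and 46.4 CPM in female stomach, against 19.4 CPM in male hippocampus. Elovl4, which makes very long fatty acids for barrier lipids, had 57.2 CPM in male and 71.1 CPM in female stomach but 131.4 CPM in female spinal cord. Ugcg, a glucosylceramide synthase, was not called, with 60.3 CPM in male and 22.5 CPM in female stomach, against 78.1 CPM in female spinal cord.

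All 8 tested of 15 other squamous keratins were called higher (median log2 fold 7.42), 4 of them having passed through stomach alone. Their levels were not confined to stomach: the 10 matched keratins summed to 1833 CPM in male and 2415 CPM in female stomach, against 268.5 to 524.1 CPM in the bone marrow, hippocampus and spinal cord libraries and 0.377 to 26.9 CPM in those of liver, pancreas and parotid. The 4 named are the called ones with the smallest adjusted p, and keratins of the list with high counts outside stomach are not among them. Krt10, the type I keratin of cornifying suprabasal cells, had 1268 CPM in male and 2201 CPM in female stomach, against at most 32.0 CPM elsewhere. The keratin of the basal layer Krt14 had 190.4 CPM in male and 35.1 CPM in female stomach. Krt78 had 58.3 CPM in male and 22.5 CPM in female stomach and no count elsewhere, and its call was lost with DESeq2 (adjusted p = 0.127). Krt17, of appendages and wounds, had 39.0 CPM in male and 17.3 CPM in female stomach.

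All 7 tested of 11 desmosome proteins were called higher (median log2 fold 4.79), 2 of them having passed through stomach alone. Perp had 199.2 CPM in male and 623.7 CPM in female stomach, against 77.4 CPM in female liver. Desmocollin 2 (Dsc2) had 109.8 CPM in male and 30.3 CPM in female stomach, and plakophilin 1 (Pkp1), which lost its call with DESeq2 (adjusted p = 0.255), 33.8 and 10.4 CPM in male and female stomach. Desmoglein 2 (Dsg2) had 19.2 and 50.7 CPM in male and female stomach, against 39.2 CPM in female liver, and with tags of code 1 alone its fold turned round. Of 17 squamous transcription factors 12 of 14 tested were called higher (median log2 fold 4.12), 3 having passed through stomach alone. The 16 matched factors summed to 348.0 CPM in male and 326.8 CPM in female stomach, against 371.6 CPM in male and 314.3 CPM in female parotid, so stomach and parotid overlapped. Klf4, which drives barrier formation, had 153.4 CPM in male and 166.0 CPM in female stomach, against 25.3 CPM in male hippocampus. Grhl3, another regulator of the barrier, averaged 29.9 ± 5.52 CPM in stomach (SD, n = 2). The other 2 named among the called were Ehf, with 42.7 CPM in male and 19.9 CPM in female stomach but 72.2 CPM in male parotid, and Klf5, with 22.5 ± 3.56 CPM in stomach (SD, n = 2). Sox2 had 4.16 CPM in male and 2.60 CPM in female stomach (adjusted p = 0.069), and Fosl1 2.08 and 1.73 CPM in male and female stomach (adjusted p = 0.067), in the same edgeR test. These 2 depend on the setting: Sox2 was called higher under 5 of the alternatives, library totals and the run without female stomach among them, and Fosl1 under 3.

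Markers of other cells of the stomach were measured beside the squamous genes, and their counts stand beside the 17.9% of all genes called higher. The summed level of 14 genes of gastric gland and surface cells was 269898 CPM in male and 114186 CPM in female stomach, against 13.9 to 38668 CPM elsewhere, and all 14 were called higher in stomach, of which 9 passed the filter through stomach alone. Pgc led it, followed by the chitinase Chia1 (14469 CPM in male and 11050 CPM in female stomach) and the trefoil peptide Tff2 (6565 and 6149 CPM in male and female stomach). Chia1 reached 38658 CPM in female parotid, above both stomach libraries, and makes up nearly all of the list's highest sum elsewhere. Tff2 reached 1963 CPM in male pancreas. All 6 simple epithelial keratins were called higher and summed to 5964 CPM in male and 5888 CPM in female stomach. All 11 smooth muscle genes were called higher, 3 having passed through stomach alone, and summed to 8467 CPM in male and 14873 CPM in female stomach. Actin gamma 2 (Actg2) had 763.6 CPM in male and 6460 CPM in female stomach, and Csrp1 376.6 and 3845 CPM in male and female stomach, the last of which had a log2 fold of 0.18 and no call without the female stomach library. The 11 skeletal muscle genes summed to 316.8 CPM in male and 50.7 CPM in female stomach, and 6 of 9 tested were called higher. Myh4 among them had 54.6 CPM in male and 0 CPM in female stomach. Pancreas acinar genes summed to 3235 CPM in male and 4381 CPM in female stomach, against up to 640905 CPM in pancreas. All 8 were called higher against the mean of log levels, though their sum in pancreas lay far above that in stomach. Adipose genes summed to 323.5 CPM in male and 263.1 CPM in female stomach, with 5 of 6 tested called higher. Blood and plasma cell genes summed to 223.1 CPM in male and 73.2 CPM in female stomach, against up to 134746 CPM in bone marrow, and 2 of 7 were called lower and 0 higher. Both squamous and glandular genes were thus present in the libraries labelled stomach.

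**Figure D3:**
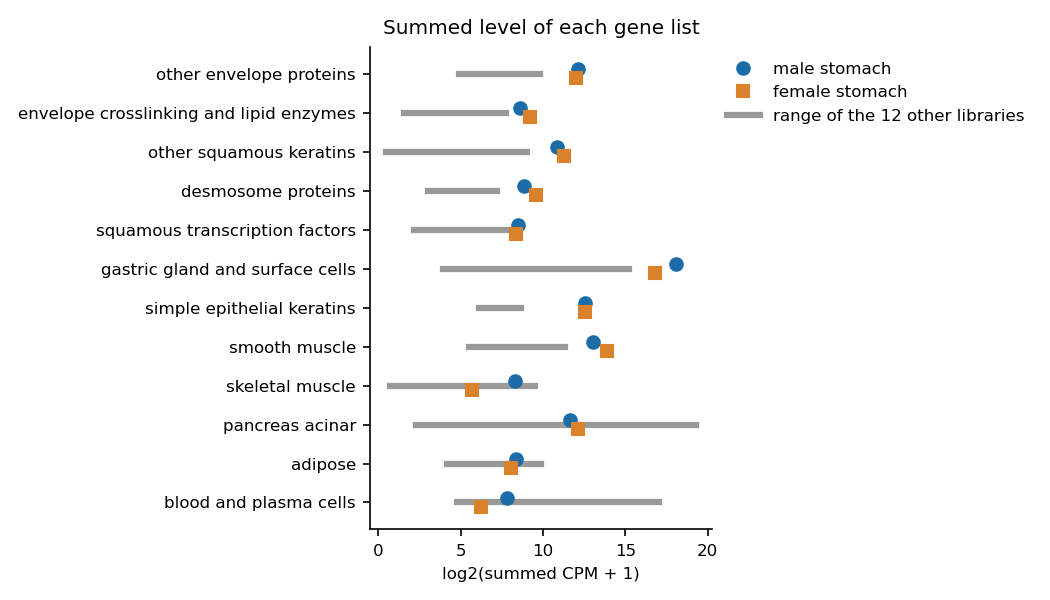
Summed level of 12 gene lists, as log2(summed CPM + 1), in male stomach (circles), female stomach (squares) and over the 12 other libraries (grey bars, lowest to highest). For envelope proteins, cross-linking and lipid enzymes, squamous keratins and desmosome proteins both stomach libraries lie above all others, while the skeletal muscle, pancreas, adipose and blood lists lie within the range of other tissues.

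The 5 genes did not keep their proportions in the 2 stomach libraries. Together they made up 2.08% of gene counts in male stomach and 4.71% in female stomach. Sprr2a1/Sprr2b took 83.8% of that sum in male and 93.9% in female stomach. Without it the other 4 genes summed to 3380 CPM in male and 2852 CPM in female stomach. Counts of Sprr1a and Sprr3 stood at 0.968 to 1 in male and 0.796 to 1 in female stomach, and those of Sprr2a1/Sprr2b and Krt4 at 26.9 to 1 in male and 27.7 to 1 in female stomach. Lor was at 2.91 counts to 1 of Krt4 in male stomach and at 0.506 to 1 in female stomach. These are proportions of counts as they stand. They are not adjusted for the GC content of the tags, which moved with the comparison of the 2 libraries, as given below.

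With 1 library per sex, male and female stomach were compared in an edgeR fit that assumes this pair to vary like the 6 pairs of the other tissues. That fit takes its spread from the other tissues, so the p-values measure no spread between stomach samples of the same sex. In those tissues Sprr3 had 0 counts, Krt4 2, Sprr1a 7, Lor 28 and Sprr2a1/Sprr2b 80. For Sprr3 and Krt4 that gives almost no spread of the gene's own. Their p-values thus rest on the spread that edgeR shares across genes. Of all genes tested 11.7% were called higher in male and 14.1% lower. Sprr2a1/Sprr2b was lower in male stomach (log2 fold -1.47 ± 0.39 SE, edgeR adjusted p = 0.0012), and so was Krt4 (-1.43 ± 0.29, adjusted p = 1.8e-05). Lor was higher in male stomach (1.09 ± 0.29, edgeR adjusted p = 0.0015). Sprr1a had a log2 fold of 0.94 ± 0.30 (edgeR adjusted p = 0.0091), under the fold of 2 that a call needs, and Sprr3 one of 0.66 ± 0.29 (adjusted p = 0.084). The 3 calls among 5 stand beside a background of 25.8% in either direction.

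The GC content of tags moved with this comparison. Over 14682 genes, Spearman's rho between the GC content of a gene's leading tag and its log2 male over female level was 0.605 in stomach, against -0.0768 to 0.0914 in the other 6 tissues. This is a correlation across genes, which are not independent replicates. Genes with 25% G and C in the leading tag, as in Krt4, had a median log2 fold of -1.31, those with 50%, as in Lor and Sprr3, 0.32, and those with 56.25%, as in Sprr1a and Sprr2a1/Sprr2b, 0.70. The Krt4 value is thus close to the median of genes with tags of its GC content, and the Sprr2a1/Sprr2b value lies on the other side of 0 from its median.

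**Figure D4:**
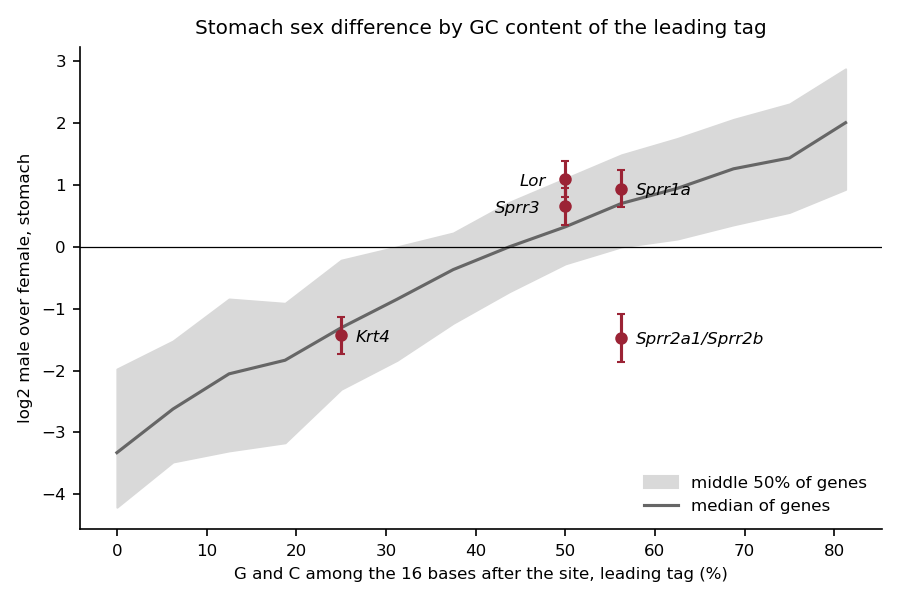
Log2 male over female level in stomach against the GC content of the leading tag, with the median (line) and the middle 50% (grey) of all tested genes and the 5 members as points with standard errors. The median climbs from below -3 for tags without G or C to 2.01 at 81.25%, Krt4 lies on it, and Sprr2a1/Sprr2b lies far below it.

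With offsets that remove this trend within each tissue, a setting chosen after the data were seen, the edgeR fit put Krt4 at 0.03 ± 0.28 (adjusted p = 1.0). Lor was at 0.80 ± 0.29 (adjusted p = 0.044, under a fold of 2), Sprr1a at 0.34 ± 0.29 (adjusted p = 0.51) and Sprr3 at 0.36 ± 0.29 (adjusted p = 0.48) in the same edgeR fit. Sprr2a1/Sprr2b remained lower in male stomach, at -2.07 ± 0.39 (edgeR adjusted p = 7.3e-06). Its call was lost with DESeq2 (-1.36, adjusted p = 0.62) and with limma voom (-1.47, adjusted p = 0.15), both without the offsets. Of all genes, 928 were called higher and 865 lower in male stomach with the offsets, against 1724 and 2070 without them.

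The fold of Sprr2a1/Sprr2b in stomach also differed from its sex fold in the other 6 tissues (difference of log2 folds -2.17 ± 0.64, edgeR adjusted p = 0.0059), where 12.7% of all genes had a lower and 9.21% a higher fold in stomach. Its counts in the other tissues were few, 39 in male and 15 in female spinal cord among them, and without the female spinal cord library the difference was -1.26 (edgeR adjusted p = 0.44), without the male one -1.30 (adjusted p = 0.42). The difference did not pass for Lor (1.14, edgeR adjusted p = 0.23), Sprr1a (1.27, adjusted p = 0.47) or Krt4 (-1.34, adjusted p = 0.76). For Sprr3, at 0 outside stomach, it could not be fitted.

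Of 64 tested genes of the squamous lists, 9 were called higher and 12 lower in male stomach, 32.8% in all against 25.8% of all genes, and their median log2 fold was 0.13 against 0 over all genes. The 5 with the smallest p in each direction were picked after values were seen. Sbsn, Krt14, Cnfn (an envelope protein, cornifelin), Krtdap and Dsc2 were higher in male stomach, with log2 folds of 1.48 to 2.36. Ly6d, a surface protein of keratinocytes, was lower (-3.49, edgeR adjusted p = 2.9e-20), with 30.2 CPM in male and 309.9 CPM in female stomach. Cystatin B (Cstb, -2.60), Perp (-1.78), desmoplakin (Dsp, -1.86) and Spink5 (-1.73) were lower as well. With the tag GC offsets 4 of the 64 were called higher and 5 lower, beside 928 and 865 of all 14682 genes, and of the 10 named only Sbsn (2.07) and Krt14 (1.44) kept a call. In the same stretch of chromosome 3, 5 of the 21 tested clusters were called higher in male stomach and 2 lower, against 11.7% and 14.1% of all genes. Lor and 4 of 11 Lce clusters were the higher ones, and Hrnr (log2 fold -1.33), a filaggrin relative, and Sprr2a1/Sprr2b the lower ones. The gastric, smooth muscle and skeletal muscle sums above differ between the stomach libraries as well. Their part in the differences was not tested.

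**Figure D5:**
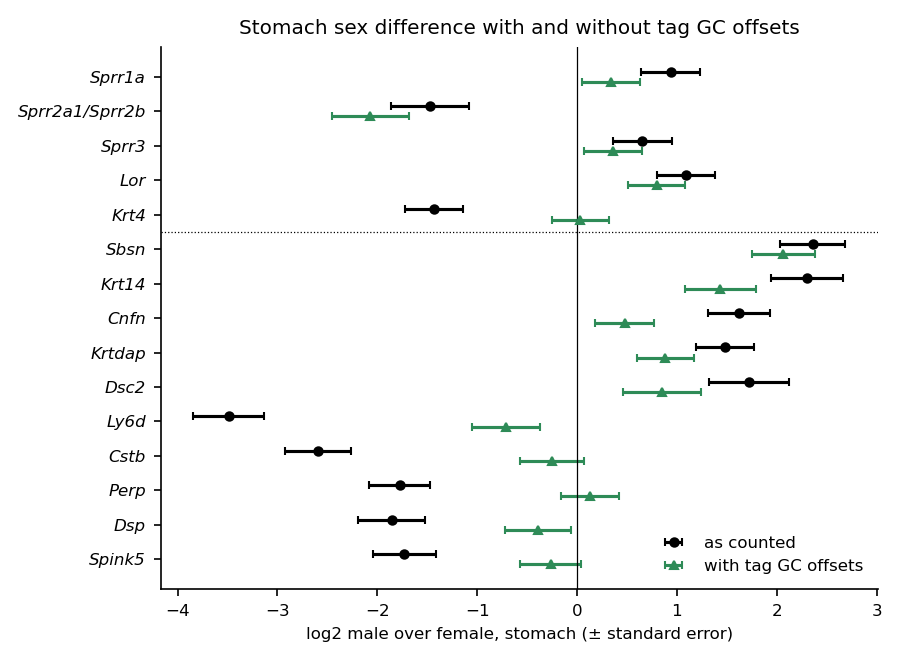
Log2 male over female level in stomach, with standard errors, for the 5 members (above the dotted line) and 10 genes of the squamous lists, as counted (circles) and with tag GC offsets (triangles). Sprr1a, Sprr3, Krt4, Perp, Cstb, Dsp and Spink5 move to within 0.4 of 0 with the offsets, while Sprr2a1/Sprr2b moves away from 0.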

How the data were processed

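Each deposited file lists 20-base tags of 1 library with a raw count, a UniGene cluster and a class code. Per the labels' protocols, cDNA was cut with DpnII and tags were taken from the site nearest the 3′ end. No source used here gives the aligner or the genome and UniGene builds. Codes 1 to 4 were taken as sense tags, an assumption, since no legend of the codes was at hand, and their counts were summed per cluster. The 1 blank row of each file was left out. Symbols came from RefSeq accessions (12099 of 22221 clusters), or for 30 listed genes from titles.

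The members and all gene lists were chosen with earlier results of these data known. Of 173 listed genes outside the 5 members, 27 were not matched.

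Counts were tested in R 4.3.3 by edgeR 4.0.16. The fit had TMM factors, the genes kept by filterByExpr over tissues (14682), terms for tissue and sex (6 residual degrees of freedom) and, for the stomach pair, a sex term of its own (5). Benjamini-Hochberg adjustment ran over all these genes, and a call takes 0.05 and a fold of 2 as its limits. Standard errors of log2 folds were calculated back from the test, as the absolute fold divided by the square root of its F statistic. P-values of the tissue tests measure the spread between these libraries. In the test of the stomach pair both stomach libraries are fitted exactly. Its p-values thus rest on the spread in the other tissues and on the spread that edgeR shares across genes. A gene with almost no counts in the other tissues has only the shared part. In the simulation that follows, unchanged genes were level over all tissues, with no differences in library make-up and no tag GC trend. Its false calls thus do not give the rate in these data. Tested on simulated counts of 14682 genes, the fit recovered 91% of 200 genes changed 4-fold in stomach against the rest, with 11 false calls, and 15.5% of 200 changed in male stomach, with 2 false calls.

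Named genes are the members. From each squamous list come up to 4 called genes with the smallest adjusted p and up to 4 uncalled ones with the highest stomach level, from other lists up to 3 with the highest stomach level, and by Pearson's r the 8 genes most like the mean of the members and the 2 most like each. Alternatives were RLE scaling, library totals, DESeq2 1.42.0, voom in limma 3.58.1, no filter, no sex term, code 1 only, 1 tag per gene, each library left out and, added later, offsets for tag GC. Python 3.11.15 with pandas 2.3.3, scipy 1.17.1 and matplotlib 3.10.9 made tables and figures. Results on single tags of some other keratins are not reported here.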

Additional observations from a re-analysis of the deposited data

Results flagged for a closer look

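The male over female fold in stomach differed from that in the other 6 tissues in the edgeR test of the difference for Sprr2a1/Sprr2b, by -2.17 on the log2 scale. The same test passed for 7 of the 10 squamous genes named for their sex fold. Those 10 were picked from these data for a small p in the stomach pair. A pass was thus favoured in advance, and the 7 of 10 is a description. Of all genes tested, 21.9% passed in either direction. The difference was 2.14 for Sbsn, 2.36 for Krt14, 2.23 for Dsc2, -3.48 for Ly6d, -2.63 for Cstb, -1.98 for Perp and -2.04 for Dsp. With tag GC offsets the differences of Sprr2a1/Sprr2b (-2.73) and Sbsn (1.86) passed, and the other 6 did not.

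Tags outside the sense classes were counted for the members in stomach. Except for Lor on the reverse strand in female stomach, the counts given are above the sum over the 12 other libraries. Tags with the reverse-strand codes 11 to 16 had 31 counts in male and 48 in female stomach for Sprr1a, 677 and 932 in male and female stomach for Sprr2a1/Sprr2b, 18 and 27 in male and female stomach for Sprr3, and 191 and 155 in male and female stomach for Krt4. For Lor these tags had 169 counts in male and 1 in female stomach, against 3 in the 12 other libraries. Tags with codes 5 and 6 had 20 counts in male and 28 in female stomach for Sprr2a1/Sprr2b, 6 and 5 in male and female stomach for Sprr3, 94 and 6 in male and female stomach for Lor, and 117 and 32 in male and female stomach for Krt4. Codes 21 to 26 had 293 counts in male and 2942 in female stomach for Sprr2a1/Sprr2b. What each code stands for was inferred, since no legend was at hand.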

How the results depend on the processing

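All member values against the mean of the other tissues kept direction and call under every setting run (114 of 114), as did 673 of 684 against single tissues. With DESeq2 the members called higher were 3 of 5 against liver, 2 against pancreas, 3 against parotid and 3 against spinal cord. Sprr3, whose tags have code 4, had no value with code 1 only. Of all genes, library totals gave 3976 higher and 203 lower in stomach, and voom 2154 lower. Leaving out 1 library gave 385 to 1745 lower, 1745 being without female stomach. S100a10 stood at 0.43 with library totals and -0.077 to 0.107 with 1 library left out, Ugcg at -0.25 to 1.23 and Myh4 at -4.70 to 4.30, their lowest without male stomach, and Dsg2 at -2.12 with code 1 only.

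Between male and female stomach, voom called 1067 genes higher, DESeq2 1369 lower, and the tag GC offsets 928 higher and 865 lower. Sprr1a was called with RLE factors (1.05) and library totals (1.07). Sprr2a1/Sprr2b lost its call with DESeq2 (-1.36) and voom (-1.47), and Lor with voom (1.09) and the offsets (0.80). With the offsets Krt4 was at 0.033 and Perp at 0.13. For the difference from other tissues, voom called 746 genes higher, DESeq2 1212 lower, and the offsets 677 higher and 705 lower. Voom called Sprr1a (1.005) and Krt4 (-1.41), which was at 0.10 with the offsets. Sprr2a1/Sprr2b was not called with DESeq2 (-1.88) and ranged from -2.77 to -1.26 with 1 library left out. The cause was not tested for these changes.

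No paired analysis was possible because the labels give no replicate numbers, and the sex term already links the libraries. With 1 library per sex and tissue, sex and individual sample cannot be told apart, and depth limits levels under about 3 counts.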
